A study of Mus musculus with 5 samples.

Results

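The genes described here are 40 genes of DNA replication and mitosis, read on 5 mouse expression arrays. They were chosen by symbol, from a list of 20 replication genes, 19 mitosis genes and the G1 cyclin Ccnd1. Each gene was represented by 1 probe set, the one with the highest mean over all 5 arrays among those annotated with that single symbol. Such a probe set was found for 39 of the 40 genes, out of 18194 genes on the array. These were all 20 replication genes, 18 mitosis genes and Ccnd1, while Ccnb1, the main mitotic cyclin, was not analysed here. A filter on dim genes left 10916 genes for testing, among them 16 replication genes, 15 mitosis genes and Ccnd1. The 7 genes under the filter, which were Tyms, Cdc6, Gins1, Ccne2, Bub1, Bub1b and Kif11, are given as values only.

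The 2 TNF-LTBR arrays and the 3 control arrays held RNA from cultures labelled as aortic endothelial cells of the C57BL/6J background, with 24 h in every title. All were grown in a medium with serum and endothelial growth supplement. The name TNF-LTBR refers to the TNF receptor and the lymphotoxin beta receptor. Neither the agonists nor their doses could be read from the labels, and the treatment text, which names PBS only, is the same for all 5 samples. The groups therefore rest on the titles. The labels do not tell separate cultures or animals from repeats of 1 culture, so every p-value refers to the spread among these 5 samples and that spread may be technical. The study asked how cells of the aorta respond to combined signalling through these receptors, and the question here is whether the genes of DNA synthesis and cell division differed between TNF-LTBR and control cultures, and between the arrays of each group.

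A dividing cell copies its DNA in S phase and then separates the copies in mitosis. Genes of the replication machinery are typically switched on at the passage from G1 to S phase by E2F transcription factors. Genes of mitosis are typically switched on later, in G2, through promoters that carry a cell cycle homology region and CCAAT boxes, bound by the MuvB complex with B-Myb and FoxM1 and by NF-Y. Endothelial cells of a healthy aorta rarely divide, and those in culture with growth factors do.

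The arrays were of like overall brightness. The intensity median lay at 120.7 and 109.9 on the TNF-LTBR arrays, against 110, 113.3 and 115.2 on the control arrays. TNF-LTBR array 2 and control array 3 shared a side against the other 3 arrays for many genes: both lay below the other 3 for 23% of the tested genes and above them for 25.5%. The log2 ratio of 3' to 5' signal was between -0.42 and -0.35 for Gapdh and between 0.41 and 0.53 for Actb over the 5 arrays. Of 15 endothelial markers, all measured, 6 passed the filter. Pecam1 had 120.8 and 52.6 on the TNF-LTBR arrays against 198.9, 161.3 and 56.0 on control arrays. Vwf stayed under an intensity of 8 on all 5 arrays. Other endothelial markers were brighter, with Eng at 1562.5 and 1693.5 against 1550.2, 1858.3 and 1811.2, and Kdr at 336.9 and 255.1 against 344.3, 364.2 and 258.0. All 12 fibroblast and pericyte markers and 8 of 12 smooth muscle markers passed the filter. The filter kept 60% of all genes, a share that the endothelial markers stayed under and these other lists exceeded. Among the dim smooth muscle markers was Myh11, the smooth muscle myosin, at 9.5 and 5.4 against 41.3, 4.6 and 22.5. The bright Acta2 of the same list had 4156.4 and 2066.4 against 7581.6, 8169.4 and 2082. Endothelial and smooth muscle markers were thus each mixed, with a larger share of the smooth muscle ones passing the filter. The title of the series speaks of smooth muscle cells. The cultures are called by their label below.

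The promoters of both classes were read for motifs of the cell cycle, a property that does not rest on the arrays. The RefSeq promoter table, on GRCm38.p6, held 33 promoters for 32 of the 40 genes, each from 250 bases before to 50 bases after a start site. Both strands were searched for 3 motifs. The E2F type was TTTCCCGC, TTTCGCGC, TTTGCCGC or TTTGGCGC, the cell cycle homology region was TTTGAA or TTTAAA, and the CCAAT box was CCAAT. The homology letters TTTAAA read the same on both strands and were counted on each, and motifs of different kinds shared bases in 2 of the 33 promoters. An E2F type motif was found in 7 of 17 replication promoters (41.2%), in 1 of 16 mitosis promoters (6.25%), and in 2.26% of all 32851 promoters in the table. The homology region was found in 14 of 16 mitosis promoters (87.5%), in 4 of 17 replication promoters (23.5%), and in 27.6% of all promoters. CCAAT was in 14 of 16 mitosis promoters (87.5%), 11 of 17 replication promoters (64.7%) and 37.4% of all. Both together were in 13 of 16 mitosis promoters, in 3 of 17 replication promoters and in 10.7% of all. A match is a description of the letters and not a binding site.

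The replication promoters that carry an E2F type motif are shown by Mcm7 and Mcm6, subunits of the replicative helicase. They are printed 5' to 3' along the gene, with the E2F type motifs of both strands in capitals. Mcm7 lies on the minus strand at chr5:138171834-138172133 and holds 2 such motifs. A second promoter of Mcm7, at chr5:138171217-138171516, holds none. Mcm6 lies on the minus strand at chr1:128359656-128359955 and holds 3, of which the first and second overlap on opposite strands.
Mcm7: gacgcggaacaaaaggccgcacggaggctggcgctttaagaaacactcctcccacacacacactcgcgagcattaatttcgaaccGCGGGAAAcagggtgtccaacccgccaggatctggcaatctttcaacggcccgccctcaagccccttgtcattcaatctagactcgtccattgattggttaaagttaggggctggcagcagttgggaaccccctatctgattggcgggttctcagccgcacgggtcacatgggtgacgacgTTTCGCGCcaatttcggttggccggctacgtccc
Mcm6: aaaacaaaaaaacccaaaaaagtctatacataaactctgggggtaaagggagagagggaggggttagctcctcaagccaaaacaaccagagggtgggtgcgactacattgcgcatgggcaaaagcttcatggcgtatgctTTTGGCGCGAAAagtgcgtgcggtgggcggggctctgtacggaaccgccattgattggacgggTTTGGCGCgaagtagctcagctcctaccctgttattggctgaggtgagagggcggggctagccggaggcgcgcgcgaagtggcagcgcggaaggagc

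The mitosis promoters are shown by Cdk1, the kinase that drives entry into mitosis, and Cdc20, the activator of the anaphase-promoting complex. Here the capitals mark the homology regions and the CCAAT boxes of both strands. Cdk1 lies on the minus strand at chr10:69352863-69353162 and holds 2 homology regions and 3 CCAAT boxes. It is also the 1 mitosis gene with an E2F type motif, which is not capitalised. Cdc20 lies on the minus strand at chr4:118437294-118437593 and holds 1 homology region and 2 CCAAT boxes.
Cdk1: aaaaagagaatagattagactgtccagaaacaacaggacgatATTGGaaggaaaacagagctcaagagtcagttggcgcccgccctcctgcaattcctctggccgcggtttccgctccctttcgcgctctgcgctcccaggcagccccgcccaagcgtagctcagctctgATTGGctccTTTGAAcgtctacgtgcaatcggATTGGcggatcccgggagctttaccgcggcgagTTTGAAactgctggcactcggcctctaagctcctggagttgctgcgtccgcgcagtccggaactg
Cdc20: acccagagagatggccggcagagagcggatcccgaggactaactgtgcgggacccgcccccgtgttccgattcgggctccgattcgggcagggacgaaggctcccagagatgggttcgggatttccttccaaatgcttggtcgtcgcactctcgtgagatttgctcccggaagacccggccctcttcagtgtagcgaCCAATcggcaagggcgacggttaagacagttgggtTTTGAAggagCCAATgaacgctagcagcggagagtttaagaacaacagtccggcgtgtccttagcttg

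In mitosis genes the homology region mostly lay close to the start site. Of the measured mitosis genes, 13 had one, and in 11 of these the one nearest to the start site began within 50 bases of it. The share within 50 bases was not computed for all promoters, so this closeness has no baseline. Taking the nearest of several matches also favours it. Among replication genes, Ccne1 and Rrm2 had a homology region within 50 bases too, and those of Mcm2 and Mcm5 lay further out. The 26 bases around the nearest homology region are printed for the 5 tested mitosis genes with the largest difference between the groups. They are given on the strand that carries the motif, with the homology region in capitals. Ube2c is at chr2:164769890-164769915 on the minus strand, Mki67 at chr7:135716462-135716487 on the minus strand, Top2a at chr11:99024197-99024222 on the plus strand, Plk1 at chr7:122159396-122159421 on the plus strand, and Aurka at chr2:172370538-172370563 on the minus strand.
Ube2c: gccgcccgcgTTTGAAttgcaaccct
Mki67: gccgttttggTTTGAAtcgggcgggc
Top2a: cctagtttcaTTTGAAcctttatcta
Plk1: gggtttgtatTTTAAAtccccgcggc
Aurka: tgactcctatTTTAAAaggagaacct

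TNF-LTBR was compared with control on log2(intensity + 16), the scale of every difference below, with limma and Benjamini-Hochberg adjustment over all 10916 tested genes. No replication or mitosis gene passed an adjusted p of 0.05, and neither did any other gene (0% called higher and 0% called lower). The smallest adjusted p among the 32 tested members was 0.999. At an unadjusted p of 0.05, 0 members and 192 of all tested genes (1.76%) passed. The group mean was nevertheless higher in TNF-LTBR for 37 of the 39 genes, 18 of 20 replication genes, 18 of 18 mitosis genes and Ccnd1, where 49.3% of all tested genes were higher. The median difference was 0.24 for replication genes, 0.49 for mitosis genes and -0.0035 for all tested genes. The range among the 3 controls was larger than the difference between the groups for 36 of the 39 genes, as for 88.7% of all tested genes. An exact permutation test of 2 arrays against 3 cannot go below a two-sided p of 0.1. Because genes of a class move together on an array, their count in 1 direction is not a count of independent observations. In a bulk culture, a change in the share of dividing cells and a change in RNA per dividing cell cannot be told apart.

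**Figure D1:**
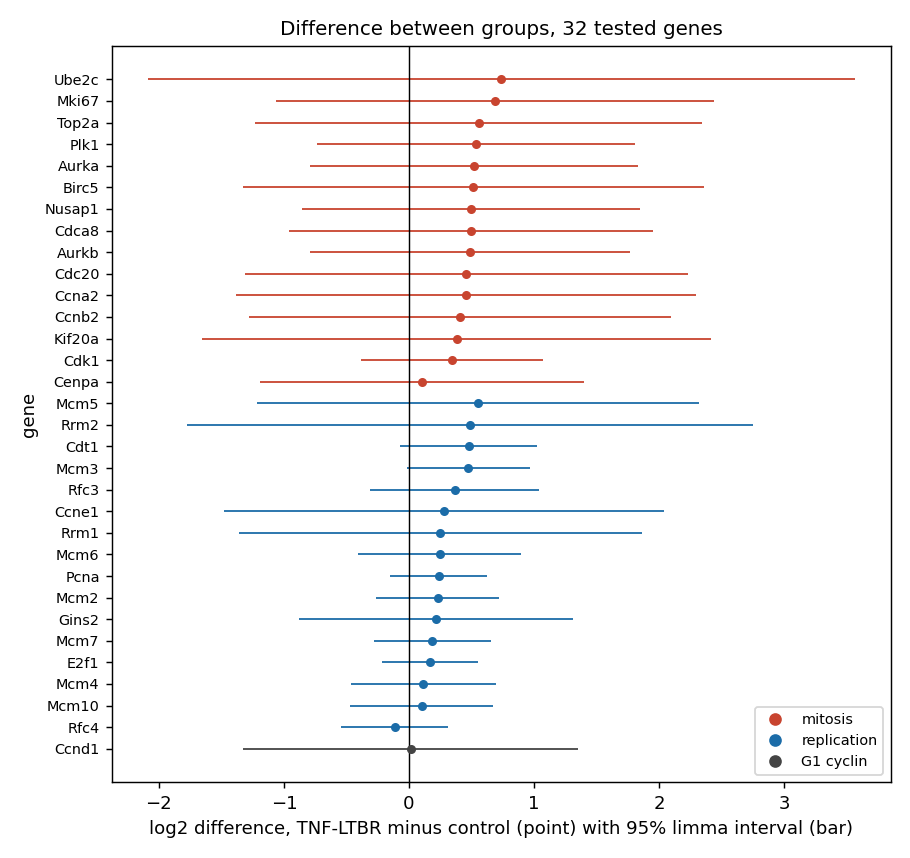
Difference between TNF-LTBR and control for the 32 tested genes (x axis, log2 units; point, difference of means over 2 TNF-LTBR and 3 control arrays; bar, 95% limma interval), grouped by class on the y axis. All 32 intervals include 0, and those of the mitosis genes are wide.

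Among the regulators of entry into S phase, Ccnd1, the cyclin that links growth factor signals to the cycle, had 14482.0 and 7306.7 on the TNF-LTBR arrays against 15961.9, 11905.7 and 5568.8 on control arrays. The groups overlapped throughout, with a difference of 0.013 and a 95% interval of -1.32 to 1.35, and the difference was -0.013 with arrays centred on their medians. E2f1, the activator of many replication genes, was steady instead, with 645.8 and 621.6 against 559.0, 618.3 and 513.9. Both TNF-LTBR values lay above all controls, by a narrow margin, and the difference was 0.17 ± 0.15 (SE). With the median over the probe sets of E2f1 it was -0.025. Ccne1, the cyclin of the G1 to S transition, had 736.0 and 262.2 against 337.6, 742.2 and 183.4. Its TNF-LTBR arrays differed by 1.43 and its groups by 0.28 ± 0.69. The dim Ccne2, a second E-type cyclin, had 204.9 and 69.7 in TNF-LTBR against 134.4, 123.6 and 62.7 in control.

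The genes that license origins and open the DNA fell into steady and variable ones. Cdt1, which loads the helicase, had 788.8 and 560.6 in TNF-LTBR against 413.3, 530.5 and 483.1 in control. Mcm3, a helicase subunit, had 680.8 and 495.8 against 389.4, 409.2 and 445.1. In both genes the TNF-LTBR arrays lay above all controls, with differences of 0.48 ± 0.22 for Cdt1 (limma unadjusted p 0.075) and 0.47 ± 0.19 for Mcm3 (0.0563), and adjusted p of 0.999. Mcm2, another subunit, had 855.7 and 925.8 against 905.5, 754.8 and 633.3, so that the groups overlapped. Mcm5 was the variable subunit, with 729.4 and 251.7 against 455.9, 405.6 and 125.9. Its groups differed by 0.55 ± 0.70, the largest difference of a tested replication gene on the probe sets used, and its TNF-LTBR arrays by 1.48. A second probe set of Mcm5, dimmer than the filter level, had 0.29 and 0.96. Further bright probe sets of Mcm3 differed between the groups by 0.25 to 0.90. Mcm4, Mcm6, Mcm7 and Mcm10, the last a helicase activator, differed between the groups by 0.10 to 0.25, and between the TNF-LTBR arrays by -0.28 to 0.50. Gins2, of the complex that activates the helicase, differed by 0.22 between the groups. The loader Cdc6 was dim, with 132.8 and 4.0 against 6.2, 72.7 and 12.9, the largest range over the arrays among replication genes. The dim Gins1 had 131.5 and 89.5 against 80.2, 110.6 and 78.8.

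Of the factors at the fork, Pcna, the sliding clamp, had 4335.4 and 4851.5 in TNF-LTBR against 4119.8, 3361.4 and 4250.3 in control. The groups did not overlap, and the difference was 0.24 with a 95% interval of -0.15 to 0.62. Rfc3, of the loader that places the clamp, had 431.7 and 277.9 against 314.7, 268.0 and 222.4, a difference of 0.36 ± 0.27 with overlapping groups. Rfc4 of the same loader was level, with 291.8 and 297.5 against 350.1, 295.5 and 317.1. Rrm2, the regulated subunit of ribonucleotide reductase, which makes DNA precursors, had 1509.4 and 315.0 against 616.2, 944.9 and 197.9. Its TNF-LTBR arrays differed by 2.20 and its groups by 0.49 ± 0.89. Rrm1, its large subunit, had 2464.3 and 872.6 against 1501.6, 1940.8 and 639.2, in the same order of arrays as Rrm2. Tyms, the thymidylate synthase, was dim and was lower on average in TNF-LTBR, with 32.4 and 36.3 against 63.2, 33.9 and 30.6. Rfc4 and Tyms were the only 2 of the 39 genes with a lower TNF-LTBR mean.

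In 4 of the 20 replication genes the lower TNF-LTBR array exceeded the highest control, namely in Mcm3, Cdt1, Pcna and E2f1. This held for 6.94% of all tested genes, and all 4 had passed the filter. No member had both TNF-LTBR arrays below all controls, against 6.34% of all tested genes. No mitosis gene had both TNF-LTBR arrays above all controls.

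Mitosis genes shared 1 order of arrays almost throughout. Mki67, the protein that coats mitotic chromosomes and marks cycling cells, had 938.5 and 268.8 in TNF-LTBR against 386.9, 480.4 and 153.7 in control. Top2a, which untangles the DNA copies, had 1352.5 and 463.1 against 634.7, 960.6 and 247.1. Ube2c, the conjugating enzyme of the anaphase-promoting complex, had 844.3 and 170.7 against 395.3, 495.1 and 49.9. In these 3 genes TNF-LTBR array 1 was the highest and control array 3 the lowest, and TNF-LTBR array 2 lay below controls 1 and 2. The differences between the groups were 0.69 for Mki67 (95% interval -1.06 to 2.44), 0.56 ± 0.71 for Top2a and 0.74 for Ube2c (95% interval -2.09 to 3.57). The kinases Plk1 and Aurka followed the same order. Plk1 had 391.4 and 152.0 in TNF-LTBR against 168.4, 242.1 and 107.7 in control, and Aurka, the kinase of the spindle poles, had 420.1 and 156.3 against 191.9, 249.4 and 110.7. Their differences were 0.53 ± 0.50 and 0.52 ± 0.52. Kif20a, a motor of cytokinesis, had 336.7 and 90.9 against 205.5, 222.3 and 46.9, and differed by 0.38 ± 0.80. Cdk1 was the least variable mitosis gene, with 1333.7 and 869.8 against 797.9, 1107.0 and 688.6, and a difference of 0.34 ± 0.29.

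The other tested mitosis genes differed between the groups by 0.10 to 0.51. Birc5 and Cdca8 are subunits of the chromosomal passenger complex with the kinase Aurkb. Birc5 had 792.3 and 212.9 in TNF-LTBR against 333.3, 490.8 and 138.5 in control, Cdca8 had 938.6 and 443.1 against 665.5, 616.3 and 223.9, and Aurkb had 296.9 and 133.5 against 176.1, 188.9 and 76.8. All 3 were highest on TNF-LTBR array 1 and lowest on control array 3. The cyclins Ccna2 and Ccnb2 had 777.8 and 227.0 against 383.9, 513.4 and 139.1, and 526.1 and 178.8 against 313.8, 348.5 and 105.4. Cdc20 had 1546.3 and 506.2 against 845.1, 1032.7 and 299.7. The spindle protein Nusap1 had 493.3 and 203.5 against 256.6, 328.3 and 125.4. These kept the same highest and lowest array. Cenpa, the histone of centromeres, had 615.5 and 239.5 against 412.7, 495.6 and 223.0, and the smallest difference of a tested mitosis gene, 0.10. The dim checkpoint genes Bub1 and Bub1b had 237.2 and 58.5 against 121.4, 203.5 and 59.0, and 204.2 and 35.8 against 53.3, 139.5 and 17.9. The dim spindle motor Kif11 had 233.1 and 75.7 against 92.9, 142.5 and 59.7.

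**Figure D2:**
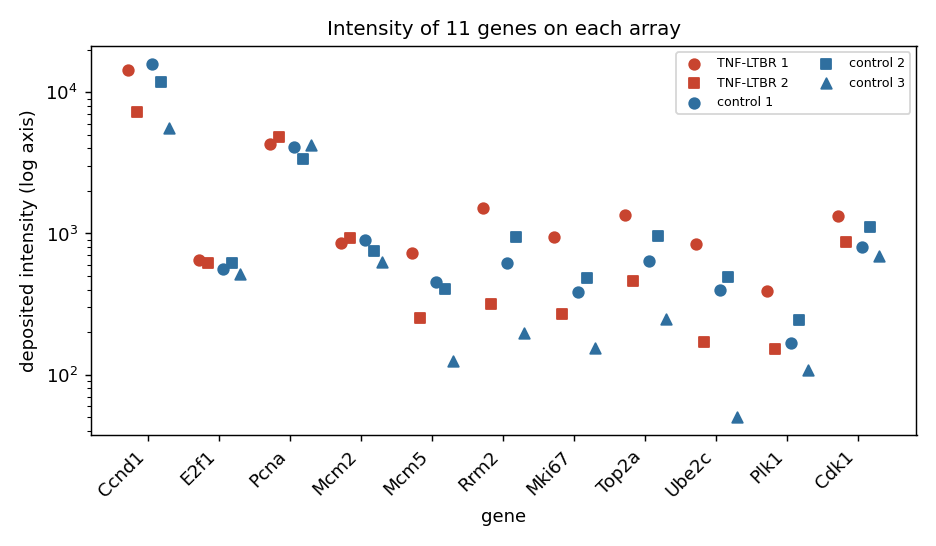
Deposited intensity (y axis, log scale) of 11 genes on each of the 5 arrays, 1 point per array, TNF-LTBR in red and control in blue. On the probe sets used, Pcna, Mcm2 and E2f1 lie close together over the arrays. Rrm2, Mcm5 and the mitosis genes are highest on TNF-LTBR array 1 and lowest on control array 3.

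The difference between the classes lay mainly within the groups. TNF-LTBR array 1 was above TNF-LTBR array 2 for 18 of 18 mitosis genes and 15 of 20 replication genes, where 50% of all tested genes were. The median of this difference was 1.50 for mitosis genes, a 2.82-fold difference, 0.48 for replication genes and -0.00027 for all tested genes. On the probe sets used it reached 1 log2 unit for 17 of the 18 mitosis genes, all but Cdk1, and for 6 of the 20 replication genes. This held for 5.84% of all tested genes. The 6 were Cdc6, Rrm2, Rrm1, Mcm5, Ccne1 and Ccne2. Mcm2, Mcm6, Pcna, Rfc4 and Tyms were instead slightly lower on array 1, with differences of -0.28 to -0.026. For Mcm2 and Rfc4 this depended on the probe set. A second bright probe set of each was higher on array 1, by 0.83 for Mcm2 and 0.35 for Rfc4. Among controls, the mean of arrays 1 and 2 exceeded array 3 by a median of 1.42 for mitosis genes and 0.29 for replication genes, against -0.026 for all tested genes. The control range had a median of 1.55 for mitosis genes, 0.55 for replication genes and 0.42 for all tested genes.

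On the probe sets used, TNF-LTBR array 1 was the highest of the 5 for 18 of 18 mitosis genes and 13 of 20 replication genes (23.7% of all tested genes). Control array 3 was the lowest for 17 of 18 mitosis genes and 11 of 20 replication genes (23.2%). The exception among mitosis genes was Bub1, at 58.5 on TNF-LTBR array 2 and 59.0 on control array 3. TNF-LTBR array 2 and control array 3 both lay below the other 3 arrays for 17 of 18 mitosis genes, all but Cdk1, and 7 of 20 replication genes (23%). On a second bright probe set this did not hold for Cdc20 and Cdca8. TNF-LTBR array 2 was above control array 1 there, with 447.3 against 431.8 for Cdc20 and 146.2 against 133.5 for Cdca8. That Cdca8 probe set was highest on control array 2, at 193.5 against 186.8 on TNF-LTBR array 1. For 15 of 18 mitosis genes and 2 of 20 replication genes the arrays stood in 1 full order, TNF-LTBR 1, control 2, control 1, TNF-LTBR 2 and control 3, from high to low. This order held for 498 of the 10916 tested genes, or 4.56%. As medians of deviations from each gene's own mean, mitosis genes stood at 0.99 and -0.48 on the TNF-LTBR arrays and at 0.040, 0.41 and -1.17 on the control arrays. Replication genes stood at 0.40 and -0.089 on the TNF-LTBR arrays, and at -0.044, 0.031 and -0.23 on the control arrays. Replication minus mitosis was thus -0.60 and 0.39 on the TNF-LTBR arrays and -0.084, -0.38 and 0.94 on the control arrays. Both groups held arrays of either sign.

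**Figure D3:**
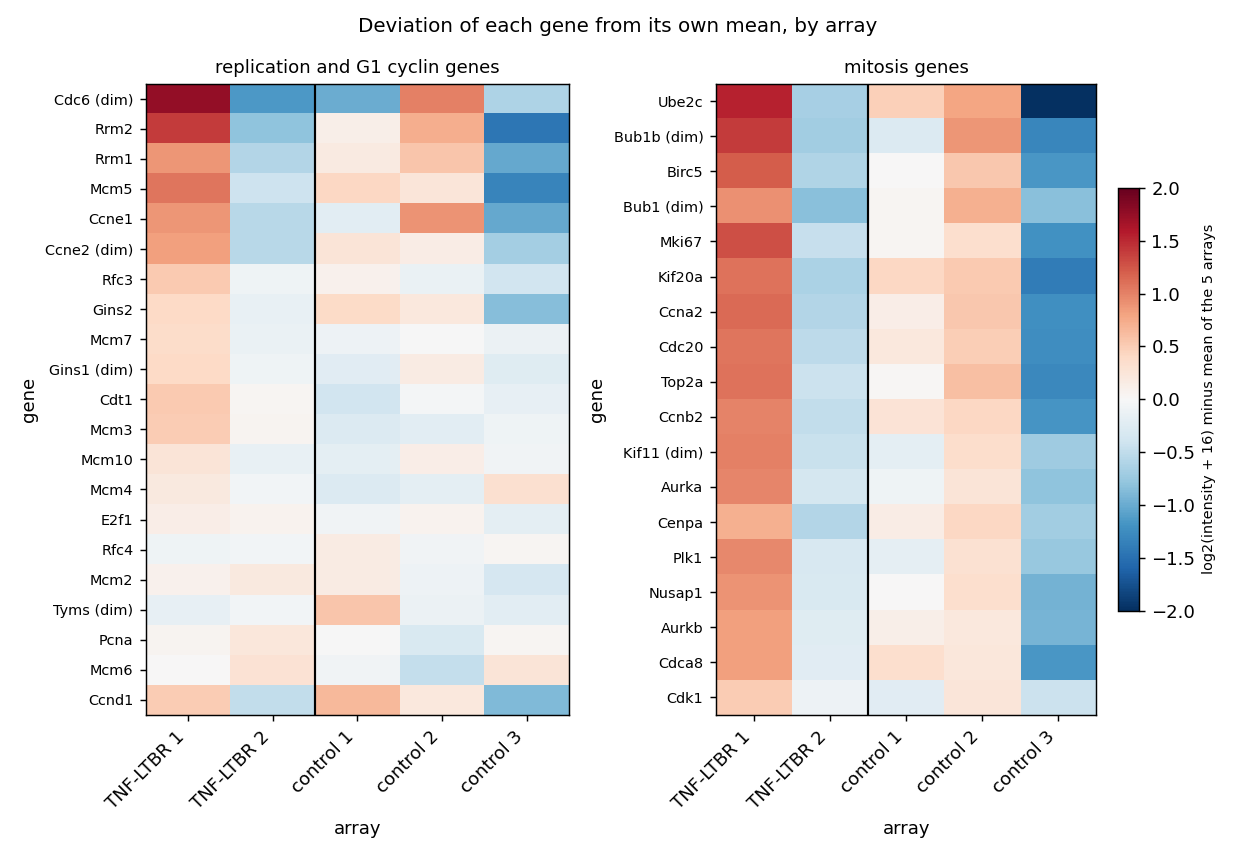
Deviation of each of the 39 genes from its own mean over the 5 arrays (colour, log2 units, from -2 to 2), with replication genes and Ccnd1 on the left, mitosis genes on the right and arrays in columns. Mitosis genes are above their mean on TNF-LTBR array 1 and below it on TNF-LTBR array 2 and control array 3, and the lower rows of replication genes stay near 0.

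**Figure D4:**
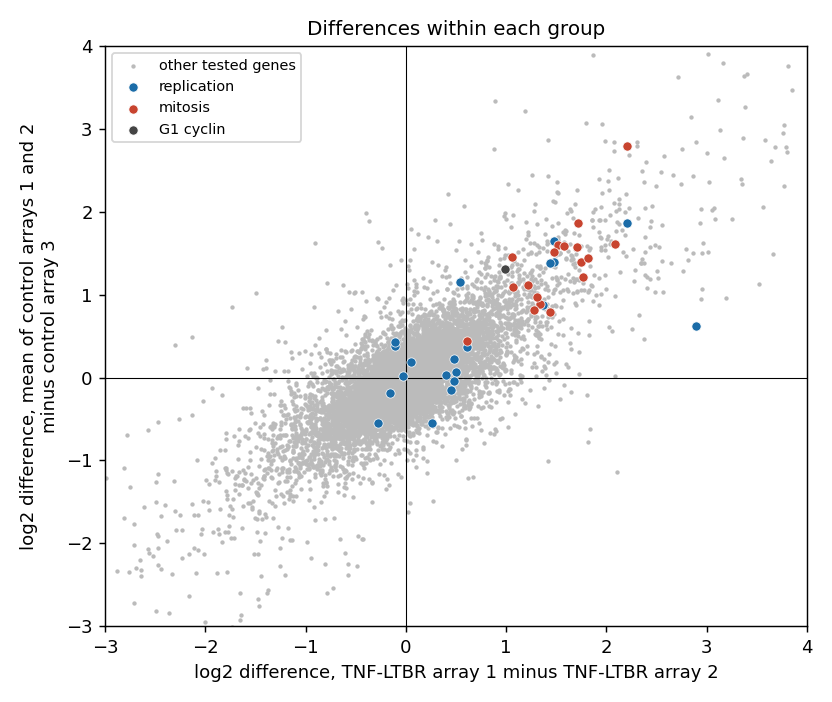
TNF-LTBR array 1 minus array 2 (x axis, log2 units) against the mean of control arrays 1 and 2 minus control array 3 (y axis, log2 units), 1 point per gene. Mitosis genes lie to the upper right, with x from 0.61 to 2.20, and replication genes run from there to the centre of the other tested genes, of which 62 lie outside the plotted limits.

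Because TNF-LTBR array 2 and control array 3 stood apart from the other 3, the groups were also set side by side without them and within that pair. This choice was made after the data were seen. Without them, TNF-LTBR array 1 exceeded the mean of controls 1 and 2 by a median of 0.76 for mitosis genes, from 0.43 to 1.09, and by 0.42 for replication genes, against 0.0052 for all tested genes. TNF-LTBR array 2 exceeded control array 3 by a median of 0.64 for mitosis genes and 0.18 for replication genes, against -0.020 for all tested genes. TNF-LTBR array 1 lay above controls 1 and 2 and TNF-LTBR array 2 above control 3 for 17 of 18 mitosis genes, all but Bub1, and for 12 of 20 replication genes, against 21% of all tested genes. For Mki67 these differences were 1.09 and 0.75, for Top2a 0.78 and 0.86, for Ube2c 0.91 and 1.50, and for Pcna 0.22 and 0.19. For Mcm4 they were 0.43 and -0.38. Each rests on 1 TNF-LTBR array. The mean differences depended on TNF-LTBR array 1. Without it, the median difference was -0.29 for mitosis genes and -0.058 for replication genes, and 28 of the 39 genes changed sign. Without control array 3 the medians were 0.027 for mitosis genes and 0.10 for replication genes.

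Other bright probe sets of the same genes mostly went the same way, though not for every gene. Of 18 bright further probe sets of replication genes, 15 were higher on TNF-LTBR array 1 than on array 2, with a median of 0.42, and 14 had a higher TNF-LTBR mean. For mitosis genes all 3 such probe sets, of Ccna2, Cdc20 and Cdca8, were higher in both respects, by medians of 0.91 and 0.53. Between the TNF-LTBR arrays all 3 differed by less than the probe set used. These differences were 0.32 against 1.06 for Cdca8, 0.91 against 1.58 for Cdc20 and 1.11 against 1.71 for Ccna2. Those of Cdca8 and Cdc20 thus stayed under 1 log2 unit. The mitosis probe sets used had medians of 1.50 and 0.49. The second bright probe set of Ccne1 had a group difference of -0.14, against 0.28 for the one used. The differences between the TNF-LTBR arrays were also read by promoter motif, as a description. The 4 replication genes with a homology region had a median TNF-LTBR array 1 minus array 2 of 1.46, from -0.11 to 2.20, and the 12 without one had 0.42, from -0.28 to 2.90. The 13 mitosis genes with one had 1.48, and the 2 without one, Bub1 and Nusap1, 1.49.

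Further genes of the cycle, from lists that named them by role, were read in the same way, and none passed an adjusted p of 0.05. Of 46 other mitosis factors measured, 33 passed the filter. Of the 46, 42 had a higher TNF-LTBR mean (49.3% of all tested genes did) and 4 a lower one, with a median of 0.26. TNF-LTBR array 1 was the highest for 38 of the 46 and control array 3 the lowest for 36, against 23.7% and 23.2% of all tested genes. Aspm, a spindle pole protein, had 384.2 and 168.0 in TNF-LTBR against 189.4, 219.0 and 60.7 in control, the order of arrays seen in Mki67. The kinesin Kif2c had 343.0 and 237.9 against 199.5, 274.7 and 186.1, and Racgap1, of the central spindle, had 443.8 and 352.3 against 315.1, 378.4 and 298.8. Of 38 other replication factors, of which 33 passed the filter, 27 were higher and 11 lower, with a median of 0.14. Pola2, a subunit of the polymerase that starts each new strand, had 393.0 and 321.4 against 214.4, 239.0 and 222.6, a difference of 0.62 with an unadjusted p of 0.0181 and an adjusted p of 0.999. Both its TNF-LTBR arrays were above all controls. Wdhd1, which tethers that polymerase at the fork, had 301.0 and 283.1 against 204.8, 233.7 and 193.9, and Pold1, the catalytic subunit of polymerase delta, had 332.8 and 332.2 against 226.3, 277.7 and 275.0. These also did not overlap, and with Pole2 they were the 4 of 38 factors with both TNF-LTBR arrays above all controls, against 6.94% of all tested genes.

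The regulators around the cycle did not lean 1 way. Of 18 transcription factors of the cycle, 10 were higher and 8 lower in TNF-LTBR, with a median of 0.090. Myc, a growth-promoting factor, had 1661.5 and 1229.2 against 886.1, 1375.9 and 709.7. E2f3, an activator, had 1083.8 and 752.3 against 717.3, 875.5 and 658.2, and E2f6, a repressor, had 972.6 and 749.7 against 942.8, 1384.7 and 902.7. All 3 overlapped between the groups. Of the 18, 3 had their lower TNF-LTBR value above the highest control (6.94% of all tested genes did), of which E2f7 and Mybl2 were under the filter, and 1, E2f2, also under it, had both TNF-LTBR values below all controls. These, and the factors of mitosis promoters, are named after their values were seen. Foxm1 had 476.2 and 430.9 against 420.1, 424.0 and 329.6, a difference of 0.21 with a limma unadjusted p of 0.301 and an adjusted p of 0.999. Mybl2 (B-Myb), which was dim, had 88.4 and 111.4 against 74.1, 77.3 and 73.3. Of 9 G1 cyclins and kinases, 5 were higher and 4 lower. Cdk4, a partner of cyclin D, had 3668.8 and 4356.8 against 2806.8, 3590.6 and 3740.2, and Cdk7 and Ccnh, of the kinase that activates others, differed by 0.14 and -0.27.

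Of 17 inhibitors and brakes of the cycle, 6 were higher and 11 lower in TNF-LTBR, with a median of -0.047. Cdkn1a (p21) had 4942.3 and 2587.3 in TNF-LTBR against 5940.1, 5510.6 and 2475.1 in control, so it was also low on TNF-LTBR array 2 and control array 3. Cdkn1b (p27) ran the other way, with 954.6 and 1669.9 against 971.4, 1024.0 and 2431.2, highest on those 2 arrays. Cdkn2a had 724.0 and 486.1 against 504.3, 716.0 and 484.8. Of the 17 genes, 8 were lowest on this pair of arrays and 5 highest, against 23% and 25.5% of all tested genes. Btg2, an antiproliferative factor, had 961.3 and 563.9 against 1451.7, 1293.2 and 640.3. Cdkn1c (p57) and Wee1, the kinase that holds back Cdk1, differed by 0.26 and 0.14.

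Markers of cell types were read on the same arrays. TNF-LTBR array 2 and control array 3 both lay below the other 3 for 23% of all tested genes and above them for 25.5%. The summed intensity of the 15 endothelial markers was 4065.8 and 3314.0 on the TNF-LTBR arrays against 4149.3, 4524.3 and 3253.9 on control arrays, and 10 of the 15 were lower on TNF-LTBR array 2 and control array 3 than on the rest, and 0 higher. The 11 macrophage markers measured came from 12 listed symbols, of which Emr1 and Adgre1 name 1 gene. These markers summed to 10156.7 and 3523.8 against 4783.1, 9174.7 and 3118.8, and 7 of the 11 were lower on that pair and 0 higher. The 12 smooth muscle markers summed to 14606.4 and 12326.7 against 28167.9, 21027.0 and 12625.2, with 4 of 12 lower on it and 0 higher. The 12 fibroblast and pericyte markers summed to 83250.2 and 94158.4 against 53800.5, 85973.0 and 87752.6, with 2 of 12 lower on it and 5 higher. Between the groups, the TNF-LTBR mean was lower for 12 of 15 endothelial, 8 of 12 smooth muscle, 7 of 11 macrophage and 6 of 12 fibroblast and pericyte markers. The median differences were -0.18, -0.56, -0.099 and -0.021 in that order. Of all 10916 tested genes, 5530 had a lower TNF-LTBR mean. No marker was listed at 0. TNF-LTBR array 1 and control array 2 had the highest macrophage sums and also the highest medians of mitosis genes. Gene by gene, TNF-LTBR array 1 was the highest for 6 of the 11 macrophage markers (23.7% of all tested genes). The full order of arrays seen in most mitosis genes held for 0 of the 11 (4.56% of all tested genes). The part of these markers in the mitosis gene values was not tested.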

How the data were processed

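RNA of 5 samples of cultured cells was read on one-colour oligonucleotide arrays. The authors deposited linear intensities, 1 per probe set and array. GCOS version 1.4 is named per the submitters' processing notes, and neither the summary algorithm nor the scaling target is given in the sources used here. The mean without the outer 2% of probe sets was 500 on every array, so the values were used as deposited. Of 45101 probe sets, 34958 had 1 gene symbol in the platform annotation, 932 several and 9211 none listed, and only the first were named. Intensities were transformed as log2(intensity + 16), which understates changes of dim genes, and the brightest probe set stood for each gene. The brightest 60% of genes entered the test (mean log2 of at least 7.17, an intensity of 128.2) with limma 3.58.1 in R 4.3.3, eBayes with an intensity trend, 3 residual degrees of freedom and Benjamini-Hochberg adjustment. The script was tested on simulated data. The number of arrays limits the precision.

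Members and lists were chosen with earlier results of these data known. Named with all values were Ccnd1, E2f1, Pcna, Mcm2, Mki67, Top2a and Cdk1, in each class the 5 tested genes with the largest difference and the 3 with the largest range, Cdkn1a, Cdkn1b and Cdkn2a, and up to 3 genes of each further list with the smallest p. The values of the other members were added to account for each. Alternatives changed the pseudocount, filter, normalization, probe set choice, eBayes trend, array weights, replicate block and arrays included. Across tested genes, deviations from group means correlated at 0.13 for the TNF-LTBR and control arrays numbered 1 and at -0.80 for those numbered 2, so the replicate numbers were not taken as pairs. With 2 TNF-LTBR arrays, their deviations are equal with opposite sign. TNF-LTBR array 1 with control array 2 therefore gave 0.80, and the correlations are not independent of each other.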

Additional observations from a re-analysis of the deposited data

How the results depend on the processing

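In each of 17 alternatives, 16 planned and 1 added after the data were seen, limma called 0 genes and 0 members at an adjusted p of 0.05, with 113 to 481 genes at an unadjusted p of 0.05. Where 1 TNF-LTBR array remained, it was assumed to vary like the controls, and the replicate block and the added alternative had 1 residual degree of freedom, so 0 calls there say little. Leaving out 1 array at a time moved the median log2 difference of mitosis genes (0.49) between -0.29 and 1.19, that of replication genes (0.24) between -0.058 and 0.49, and replication minus mitosis (-0.25) between -0.70 and 0.23. The lowest medians came without TNF-LTBR replicate 1, which turned the sign of 28 of 39 members, and 13 turned without control replicate 3. The replicate number was also used as a block, which the data do not bear out as a pairing. The medians were then 0.027 for mitosis and 0.10 for replication, their difference was 0.078, and 13 of 39 members turned sign. Control replicate 3 has no TNF-LTBR array of its number, so the block gave the same differences as leaving that array out. For the differences these settings are not separate results. Signs turned under the replicate block for Bub1 -0.34, Ccna2 -0.067, Ccnb2 -0.093, Ccnd1 -0.42, Ccne1 -0.18, Ccne2 -0.075, Cdc20 -0.073, Cdkn1b 0.34, Cdkn2a -0.018, Cenpa -0.22, Gins2 -0.17, Kif20a -0.24, Rrm1 -0.22, Rrm2 -0.13, Ube2c -0.19. They turned with the median over probe sets for Bub1 -0.15, Ccnd1 -0.0094, Cdk7 -0.16, Cenpa -0.070, E2f1 -0.025, with array weights for Bub1 -0.10, Ccnd1 -0.23, Cdkn1b 0.13, Cenpa -0.048, with median centring for Ccnd1 -0.013, and without probe sets of shared sequence for Ccne1 -0.14, Cdk7 -0.21, E2f1 -0.025. The genes that turned when 1 array was left out ranged as follows: Aurka -0.15 to 1.19, Aurkb -0.043 to 1.02, Birc5 -0.40 to 1.42, Bub1 -0.82 to 0.95, Bub1b -0.46 to 1.62, Ccna2 -0.40 to 1.31, Ccnb2 -0.33 to 1.15, Ccnd1 -0.48 to 0.51, Ccne1 -0.44 to 1.00, Ccne2 -0.46 to 0.90, Ccnh -0.62 to 0.081, Cdc20 -0.33 to 1.25, Cdc6 -0.94 to 1.95, Cdca8 -0.032 to 1.02, Cdk7 -0.080 to 0.35, Cdkn1a -0.74 to 0.19, Cdkn1b -0.49 to 0.34, Cdkn2a -0.20 to 0.36, Cenpa -0.55 to 0.75, Gins2 -0.17 to 0.49, Kif11 -0.25 to 1.19, Kif20a -0.48 to 1.24, Mcm10 -0.10 to 0.30, Mcm4 -0.015 to 0.30, Mcm5 -0.19 to 1.29, Mcm7 -0.061 to 0.43, Mki67 -0.19 to 1.56, Nusap1 -0.11 to 1.11, Plk1 -0.10 to 1.17, Rrm1 -0.49 to 0.99, Rrm2 -0.61 to 1.59, Top2a -0.20 to 1.31, Tyms -0.32 to 0.061, Ube2c -0.36 to 1.84. Tyms stood at -0.38 without both TNF-LTBR replicate 2 and control replicate 3. The cause was not tested. No member turned with pseudocounts of 1 or 64, quantile normalization, or without both TNF-LTBR replicate 2 and control replicate 3. Either filter and eBayes without the trend leave each difference unchanged, so no sign could turn there. With 2 arrays against 3, differences smaller than the spread on these arrays could not be resolved, and dim probe sets were not tested.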
